A study of Rattus norvegicus with 138 samples.

Results

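GABA-A receptor subunits were followed by mRNA level in the brainstem of the spontaneously hypertensive rat (SHR) and its normotensive control, the Wistar Kyoto (WKY) rat. The members are 7 genes picked by symbol from the 32883 genes of each count table: Gabra2 (ENSRNOG00000002349), Gabra3 (ENSRNOG00000056558), Gabra5 (ENSRNOG00000010803), Gabrb1 (ENSRNOG00000002327), Gabrb2 (ENSRNOG00000003680), Gabrg1 (ENSRNOG00000002360) and Gabrd (ENSRNOG00000016385). All 7 had counts in every library. Gabrd did not pass the filter on low values in the RVLM, so the tests within that region cover 6 members. The rats were females of the WKY/NHsd and SHR/NHsd strains, bought from Envigo and kept 1 to a cage, and no drug or surgery sets the groups apart. Of the 46 rats, 5 WKY rats and 5 SHRs were 8 wk old, 4 and 5 were 10 wk old, and 3 and 6 were taken at each of 12, 16 and 24 wk. RNA was sequenced from 1 mm punches of both sides of the nucleus of the solitary tract (NTS), the caudal ventrolateral medulla (CVLM) and the rostral ventrolateral medulla (RVLM), which gave 1 library per rat and region. Rats of these ages span the period before, during and after blood pressure rises in SHRs, and the comparisons ask whether the subunits differ between regions, between strains and with age.

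GABA-A receptors are chloride channels built from several subunits around a central pore, which GABA opens and which in most adult neurons lowers excitability. The alpha subunits contribute to the GABA binding site and set how the receptor responds to many drugs, the beta subunits form the other side of that site and take part in anchoring, and a gamma or delta subunit completes most receptors. Gamma-containing receptors are found largely at synapses, whereas delta-containing receptors lie outside them and carry a tonic current that neurosteroids enhance. In the medulla, GABA from the CVLM holds back the neurons of the RVLM that drive sympathetic outflow, and GABA within the NTS shapes the baroreceptor reflex.

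Before the levels, the upstream sequences of 4 members are printed, since Gabrb1 and Gabrg1 differed most steadily between the NTS and CVLM, and Gabra5 and Gabrb2 most often with age. Sequences are from RefSeq in the build GRCr8, which is not the build the counts were made on, and 6 of the 7 members were matched; Gabra2 was not. Each window holds the 250 bases before the annotated start of the gene, written 5′ to 3′ on the strand of the gene. It was chr14:36902894-36903143 on the minus strand for Gabrb1, chr10:27439543-27439792 on the plus strand for Gabrb2, chr1:117516607-117516856 on the minus strand for Gabra5 and chr14:37750042-37750291 on the plus strand for Gabrg1. Capitals mark a match, on either strand, to 1 of the motifs that were searched or to the run that both beta subunits share.
Gabrb1: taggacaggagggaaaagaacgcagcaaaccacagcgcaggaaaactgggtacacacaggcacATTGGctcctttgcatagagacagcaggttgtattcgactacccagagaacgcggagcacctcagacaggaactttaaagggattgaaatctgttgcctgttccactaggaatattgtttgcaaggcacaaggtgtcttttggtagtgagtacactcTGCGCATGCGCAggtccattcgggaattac
Gabrb2: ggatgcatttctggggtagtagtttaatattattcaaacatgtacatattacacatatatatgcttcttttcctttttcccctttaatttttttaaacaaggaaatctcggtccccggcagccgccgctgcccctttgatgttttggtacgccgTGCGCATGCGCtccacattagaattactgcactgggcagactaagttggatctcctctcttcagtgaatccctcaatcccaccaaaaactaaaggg
Gabra5: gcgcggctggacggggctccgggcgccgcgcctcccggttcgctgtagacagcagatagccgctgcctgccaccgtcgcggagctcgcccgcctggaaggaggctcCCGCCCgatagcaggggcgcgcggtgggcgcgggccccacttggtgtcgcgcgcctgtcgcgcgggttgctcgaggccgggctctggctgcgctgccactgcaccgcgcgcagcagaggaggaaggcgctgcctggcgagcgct
Gabrg1: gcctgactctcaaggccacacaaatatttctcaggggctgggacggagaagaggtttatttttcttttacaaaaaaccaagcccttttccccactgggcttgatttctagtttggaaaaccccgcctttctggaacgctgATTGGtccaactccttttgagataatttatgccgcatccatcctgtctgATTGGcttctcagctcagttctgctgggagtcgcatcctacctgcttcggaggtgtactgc

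The longest run of letters that both beta subunits share was TGCGCATGCGC, with 11 bases, counted from the start at -30 to -20 in Gabrb1 and at -96 to -86 in Gabrb2. In Gabrb1 it also matched on the opposite strand at -29 to -19, since the run is nearly a palindrome. It has the letters known for binding of nuclear respiratory factor 1, and 0.535% of 33469 windows of the same length in the table hold it on either strand. The CCAAT box CCAAT, held by 34.0% of windows, was found in Gabrb1 at -187 to -183, in Gabra3 at -80 to -76 and in Gabrg1 at -110 to -106 and at -61 to -57. Gabra5 and Gabrd had the GC box GGGCGG, which 30.5% of windows hold, and their windows were 76.4% and 74.0% G and C against a median of 51.2% over all windows. The TATA box TATAAA, present in 12.9% of windows, was found in Gabra3 alone of the 6. None of the 6 windows held the cyclic AMP response element TGACGTCA (1.59% of all) or the E-box CACGTG (5.59%). Gabra2 and Gabrg1 are neighbouring genes, and Gabrb1 lies on the same chromosome, 14. These matches describe letters in a window and not binding.

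Counts per library ran from 5904581 to 17889417, with region medians of 9970392 for the NTS, 10009218 for the CVLM and 10335124 for the RVLM. Levels are CPM, the reads of a gene relative to the library size after TMM scaling, which carry no correction for transcript length, so each gene is compared with itself and not with another. Regions are named by their labels, and the markers of those labels were uneven. The 6 Hox genes listed for the medulla summed to a median of 114 CPM in the NTS and 68.0 CPM in the CVLM but 1.89 CPM in the RVLM, where each of them had a median under 1 CPM. The 5 catecholamine neuron markers (Th, Dbh, Pnmt, Slc6a2, Slc18a2) had median sums of 263, 327 and 107 CPM in the NTS, CVLM and RVLM, and Tlx3 and Lmx1b, markers of NTS neurons, each had a median under 1 CPM in all 3 regions. The 5 cholinergic and motor neuron markers (Chat, Slc18a3, Slc5a7, Isl1, Prph) summed to between 680 and 2630 CPM in the RVLM, 159 and 714 CPM in the NTS, and 60.9 and 261 CPM in the CVLM, with no overlap between the CVLM and the RVLM. Markers of neurons at large had medians of 7943, 12044 and 24416 CPM in the NTS, CVLM and RVLM. Library names end in the number 1 or 2, whose meaning the sources used here do not give. It is 2 in all libraries of 10 wk, in WKY rats of 8 wk with replicate numbers 3 to 5, and in 1 SHR each of 12 and 24 wk. In the RVLM, the WKY library of 8 wk with replicate number 3 stood apart from the others, with a median correlation of 0.906 to the rest of its region.

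Most of the subunits differed between regions. In edgeR's quasi-likelihood test over the 46 libraries of each of the 3 regions, with the rat as a block, 19 of the 21 differences between pairs of regions passed an adjusted p of 0.05. Gabrd entered this fit only through the NTS and the CVLM, where it is higher, because its RVLM values were under the filter minimum, so this choice favours its differences from the RVLM. The 6 members that passed the filter in every region gave 16 of 18. Between the NTS and the RVLM 6 of these 6 passed (all genes: 72.7%), between the NTS and the CVLM 5 of 6 (all genes: 65.9%), and between the CVLM and the RVLM 5 of 6 (all genes: 54.0%). Since most genes differed between regions, the number that passed says little about the subunits, and the description rests on the size and order of each. The median difference over the 6 members was 0.25 on the log2 scale for NTS minus RVLM, 0.51 for NTS minus CVLM and -0.30 for CVLM minus RVLM. Over all genes tested the 3 medians lay within 0.01 of 0, where TMM scaling holds them. The 3 comparisons share libraries. In bulk tissue, fewer cells of a type and less RNA per cell cannot be told apart.

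Among the alpha subunits, Gabra2 and Gabra3 had different orders. Gabra2, an alpha subunit of synaptic receptors that is also placed at the start of the axon, was highest in the RVLM. Its lowest, median and highest CPM were 24.7, 49.4 and 75.8 in the RVLM, 19.5, 26.0 and 41.3 in the NTS and 7.53, 19.9 and 28.4 in the CVLM (n = 46 each). The ranges overlapped, and the RVLM started below the median of the NTS, but within a rat the order was steady and 42 of 46 rats had the order RVLM, NTS, CVLM from high to low. Gabra2 was 2.43-fold higher in the RVLM than in the CVLM (log2 CVLM minus RVLM -1.28, SE 0.058, adjusted p = 3.0e-33). The RVLM exceeded the NTS by 1.71-fold (log2 NTS minus RVLM -0.77, SE 0.057, adjusted p = 3.3e-21), and the NTS exceeded the CVLM by 0.51 on the log2 scale (adjusted p = 1.5e-12).

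Gabra3, an alpha subunit known from brainstem monoamine neurons, was highest in the NTS. CPM there ran from 29.2 through a median of 48.9 to 71.0, against 17.3, 35.6 and 50.8 in the CVLM and 13.8, 33.4 and 53.4 in the RVLM. The NTS was the highest of the 3 regions in 43 of 46 rats. Log2 differences were 0.54 from the RVLM (SE 0.052, adjusted p = 7.5e-16) and 0.50 from the CVLM (SE 0.052, adjusted p = 3.7e-14). For the CVLM and the RVLM, the difference of 0.04 had a 95% interval of -0.06 to 0.15 and did not pass (adjusted p = 0.52). Set against each other within a library, which cancels the depth, the log2 ratio of Gabra2 to Gabra3 had a median of -0.87 for the NTS, -0.90 for the CVLM and 0.46 for the RVLM. The ratio of these 2 alpha subunits was thus shifted in the RVLM, while it was nearly the same in the other 2 regions.

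Gabra5, an alpha subunit of receptors that lie largely outside the synapse, was lower in the RVLM. Its CPM ran from 11.03 through a median of 26.8 to 55.4 there, from 15.2 through 33.9 to 62.5 in the NTS and from 19.6 through 36.0 to 78.4 in the CVLM. The ranges overlapped broadly, and the order CVLM, NTS, RVLM held in 25 of 46 rats. CVLM exceeded RVLM by 0.53 on the log2 scale (SE 0.082, adjusted p = 4.5e-08) and NTS exceeded RVLM by 0.33 (SE 0.081, adjusted p = 1.9e-04). NTS minus CVLM was -0.19 (SE 0.080, adjusted p = 0.028) and did not pass when the rats of 10, 12 or 24 wk were left out (-0.19, -0.18 and -0.14, adjusted p = 0.072, 0.077 and 0.15).

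**Figure D1:**
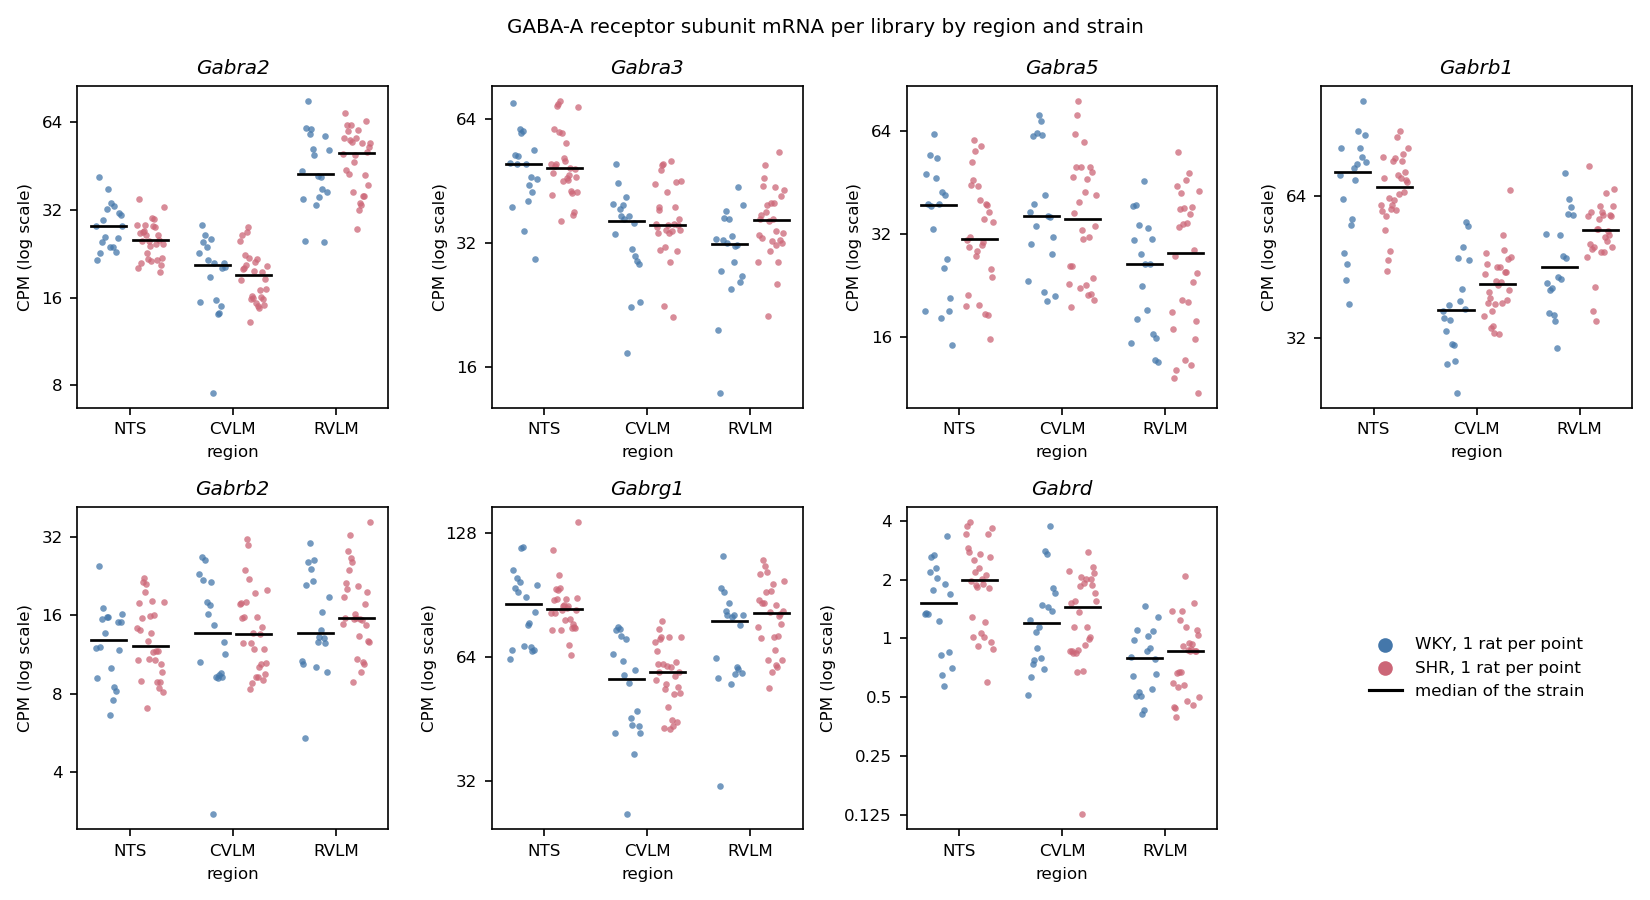
CPM (log axis) of each subunit in every library, by region and strain, with 1 point per library and a line at the median of each strain. Gabra2 stands highest in the RVLM (24.7 to 75.8 CPM) and Gabrb1 in the NTS (37.9 to 102 CPM), and points of both strains lie over each other in all panels.

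The beta subunits also differed in order from each other. Gabrb1 had 37.9, 69.4 and 102 CPM in the NTS as its lowest, median and highest value, 30.5, 52.7 and 74.1 in the RVLM and 24.5, 39.6 and 66.2 in the CVLM. Gabrb1 was higher in NTS than CVLM in 46 of 46 rats, and 39 rats had the order NTS, RVLM, CVLM. The log2 difference of NTS minus CVLM was 0.74 (1.67-fold, SE 0.040, adjusted p = 2.4e-28). NTS minus RVLM was 0.40 (SE 0.040, adjusted p = 3.6e-15) and CVLM minus RVLM -0.33 (SE 0.040, adjusted p = 1.7e-11). Gabrb2, the beta subunit of many synaptic receptors in the adult brain, had medians of 12.4 CPM in the NTS (6.63 to 24.7), 13.6 in the CVLM (2.76 to 31.4) and 15.6 in the RVLM (5.44 to 36.5). The 3 ranges overlapped broadly, and the most frequent order, RVLM, CVLM, NTS, was seen in 19 of 46 rats. The RVLM was the highest on average, with a log2 NTS minus RVLM of -0.37 (SE 0.070, adjusted p = 2.7e-06), and CVLM minus RVLM was -0.27 (SE 0.070, adjusted p = 7.3e-04). NTS minus CVLM was -0.10 with a 95% interval of -0.24 to 0.04 and did not pass (adjusted p = 0.21).

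Gabrg1, a gamma subunit found in a limited set of neurons and in glia, was low in the CVLM. Its lowest, median and highest values were 26.5, 58.2 and 77.9 CPM in the CVLM, 63.1, 83.6 and 136 in the NTS and 31.1, 80.6 and 112 in the RVLM. The CVLM lay below the NTS in 45 of 46 rats and below the RVLM in 44 of 46. NTS minus CVLM was 0.62 on the log2 scale (SE 0.047, adjusted p = 3.4e-20) and CVLM minus RVLM -0.46 (SE 0.047, adjusted p = 3.9e-14). NTS and RVLM differed by 0.16 (SE 0.047, adjusted p = 0.0019), and their order was split, with the NTS higher in 29 rats and lower in 17.

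Gabrd, the delta subunit, was close to the floor of these libraries, with 1 to 46 counts. CPM was 0.571 to 3.93 in the NTS (median 1.89), 0.125 to 3.76 in the CVLM (median 1.31) and 0.395 to 2.08 in the RVLM (median 0.860). The ranges overlapped, and the NTS exceeded the RVLM in 40 of 46 rats. NTS minus RVLM was 1.07 on the log2 scale (2.10-fold, SE 0.134) and CVLM minus RVLM 0.77 (SE 0.135). Both are given as descriptions, since Gabrd was tested only because it passed the filter on low values in the NTS and the CVLM. NTS minus CVLM was 0.30 (SE 0.127, adjusted p = 0.033). This difference was 0.04 without the rats of 8 wk (adjusted p = 0.82) and 0.13 without those of 10 wk (adjusted p = 0.47).

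**Figure D2:**
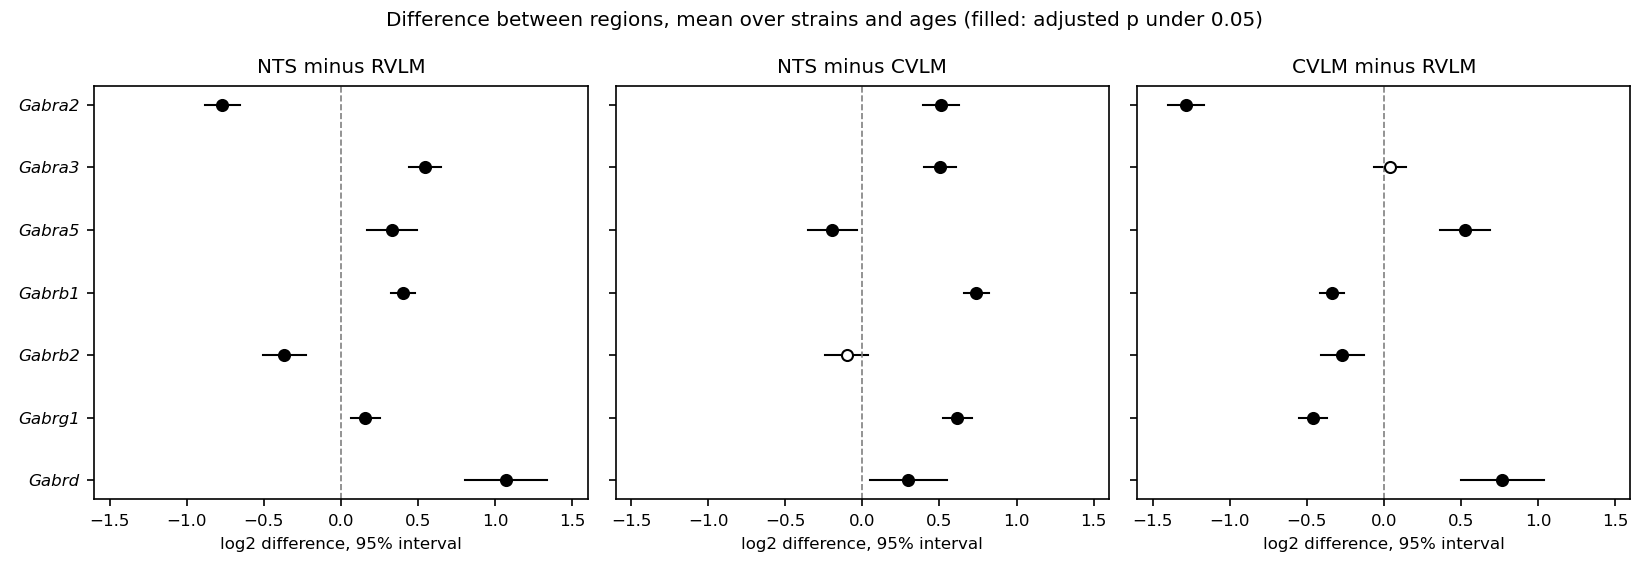
Log2 difference between each pair of regions for the 7 subunits, averaged over strains and ages, with 95% intervals and filled points for an adjusted p under 0.05. Gabra2 reaches furthest below 0 (CVLM minus RVLM -1.28), Gabrd, which did not pass the filter in the RVLM, lies at 1.07 for NTS minus RVLM, and the 2 open points are Gabra3 for CVLM minus RVLM and Gabrb2 for NTS minus CVLM.

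The region differences were present in both strains. Fitted within a strain, 15 of the 18 differences of the 6 members without Gabrd passed in WKY rats and 14 in SHRs, and all 21 differences had the same sign in both. Beside the shares in these members (6, 4 and 5 of 6 in WKY rats and 5, 4 and 5 of 6 in SHRs for NTS minus RVLM, NTS minus CVLM and CVLM minus RVLM), 62.2%, 52.5% and 39.0% of all genes passed in WKY rats and 64.4%, 55.7% and 44.8% in SHRs. The strain difference itself did not differ between regions for any member at an adjusted p of 0.05 in edgeR's quasi-likelihood test (0 of 21, against 0.862% of all genes, with 3 at an unadjusted p under 0.05). The smallest unadjusted p was that of Gabra2, whose SHR minus WKY difference in the NTS was 0.31 below that in the RVLM on the log2 scale (value -0.31, SE 0.114, adjusted p = 0.16).

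Cell content moved with the regions, and 2 covariates were fitted to it, which cannot settle its part in the result. With the summed neuron markers of each library as a covariate, 7 of the 21 differences passed, and with the cholinergic and motor neuron markers, an alternative chosen after seeing the data, 6 passed (7 and 5 without Gabrd). Gabra3, Gabrb1 and Gabrg1 stayed higher in NTS than CVLM with either covariate, by 0.32, 0.66 and 0.68 on the log2 scale with neuron markers and by 0.47, 0.66 and 0.56 with cholinergic markers. For Gabra2, CVLM minus RVLM was -0.85 with neuron markers (adjusted p = 3.3e-05) and -0.26 with cholinergic markers (adjusted p = 0.81). Within a region, Gabra2 and the summed cholinergic markers were also compared as deviations from the means of each strain and age, on the log2 scale. These deviations correlated at r = 0.46 for the NTS, -0.04 for the CVLM and 0.59 for the RVLM (46 libraries each, which share depth and dissection). With the summed neuron markers, those of Gabra2 correlated at 0.14, 0.26 and 0.47. Values of this size were not particular to Gabra2. Gabrd reached -0.49 with cholinergic markers in the NTS and 0.60 with astrocyte markers in the CVLM. The 2 covariates separate the regions almost entirely, so a difference that does not pass with them is not shown to be absent. For the same reason, a difference that passes with them is not shown to be independent of cell content.

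**Figure D3:**
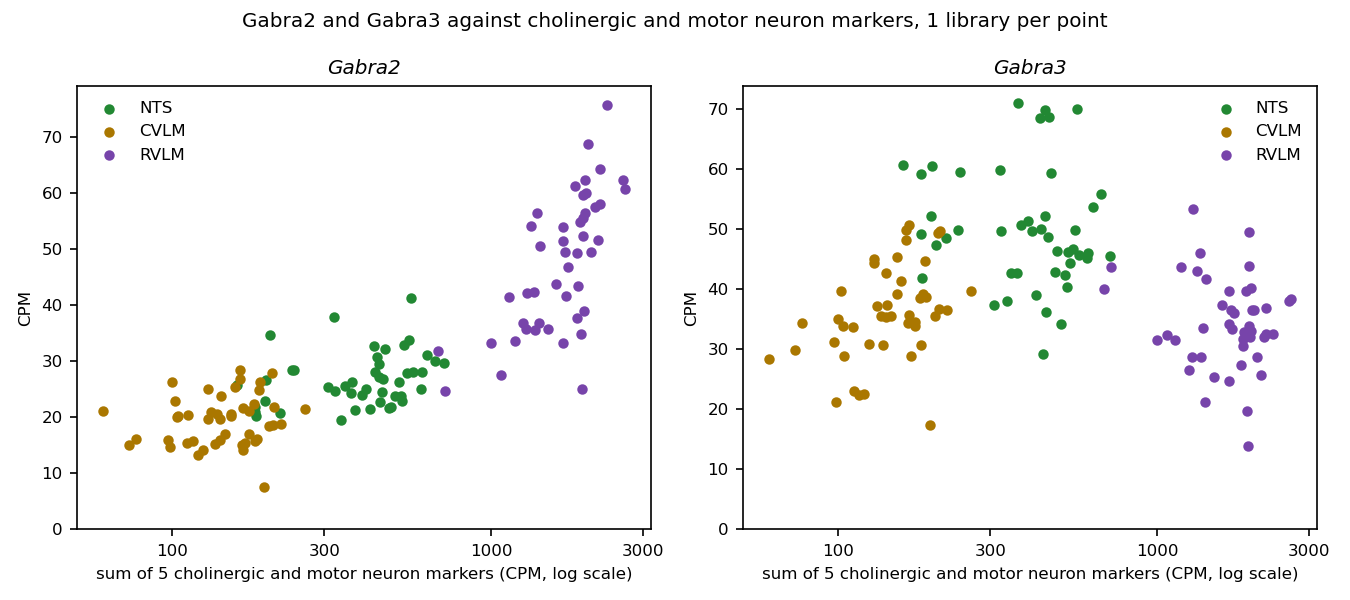
CPM of Gabra2 (left) and Gabra3 (right) against the sum of 5 cholinergic and motor neuron markers (CPM, log axis), with 1 point per library coloured by region. RVLM libraries lie furthest to the right (680 to 2630 CPM) and highest for Gabra2, whereas for Gabra3 their range lies over that of the CVLM (13.8 to 53.4 against 17.3 to 50.8 CPM).

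Levels over the 30 groups of region, strain and age were compared with those of 13115 other genes that passed the filter in all regions. Gabra2 was most like Cpne3 (Pearson r = 0.957 over 30 group means), Dclk1 (0.954) and Slc5a7 (0.953), the choline transporter that is 1 of the cholinergic markers. Gabra3 was most like Zhx1 (0.948), Gabrb1 like Abca1 (0.920), Gabrb2 like Map2 (0.914) and Gabrg1 like Acss3 (0.922). For Gabrd the nearest gene, Cbln1, reached 0.777. Within a region, deviations from the group means of Gabra2, Gabrb2 and Gabrg1 went together across the 46 libraries. The correlation of Gabra2 with Gabrb2 was 0.65 for the NTS, 0.86 for the CVLM and 0.66 for the RVLM, that of Gabra2 with Gabrg1 was 0.64, 0.83 and 0.81, and that of Gabrb2 with Gabrg1 was 0.65, 0.80 and 0.78. Gabra3 also went with them, at 0.60, 0.68 and 0.68 with Gabrb2 and 0.47, 0.62 and 0.59 with Gabrg1. All points share library and depth, and these values are descriptions.

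Between strains the subunits differed little when averaged over the 5 ages. In this average, 0 of the 20 values tested passed edgeR's quasi-likelihood test at an adjusted p of 0.05. The shares of all genes were 11.2% for the NTS, 12.3% for the CVLM and 10.8% for the RVLM. An unadjusted p under 0.05 was seen in 6 of the 20. For this and the other counts at an unadjusted p, the share of all genes is not given here, so no excess is read from them. DESeq2, run as another tool, also passed 0 of the 20. Leaving Gabrd aside, SHR minus WKY lay between -0.17 and 0.23 on the log2 scale, and all 95% intervals lay within -0.34 and 0.52. The median over the members was 0.04 for the NTS, 0.10 for the CVLM and 0.18 for the RVLM. The medians over all genes lay within 0.01 of 0, where TMM scaling holds them, so no shift of the members is read from this. All 6 members tested in the RVLM had a positive value there, from 0.14 for Gabra2 and Gabrb1 to 0.23 for Gabra3 (SE 0.089, 95% interval 0.05 to 0.41, adjusted p = 0.090). Several of these members went together across the RVLM libraries, so the 6 signs are not independent of each other. In the NTS, Gabra2 had -0.17 (SE 0.076, adjusted p = 0.18) and Gabrd 0.46 with a 95% interval of 0.07 to 0.85 (adjusted p = 0.13).

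**Figure D4:**
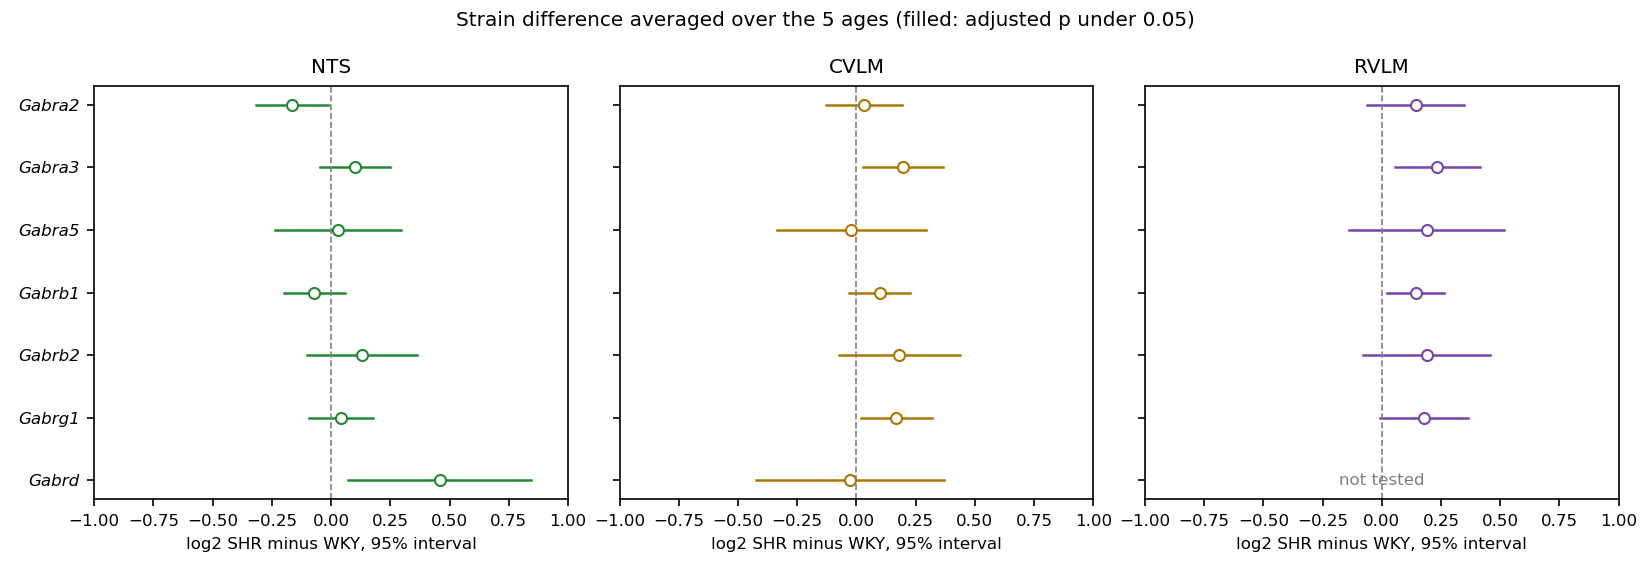
Log2 difference of SHR minus WKY averaged over the 5 ages in each region, with 95% intervals. All points are open, since no subunit reached an adjusted p under 0.05, and apart from Gabrd they lie between -0.17 and 0.23.

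At single ages, 1 of 100 values passed (all genes and ages: 3.87%), with 11 at an unadjusted p under 0.05. Leaving Gabrd aside, the values ran from -0.69 to 0.72 on the log2 scale, and the 95% intervals reached from -1.37 to 1.49. With intervals this wide, a difference that did not pass at a single age is not shown to be absent. The value that passed was Gabrb1 in the RVLM at 8 wk, where 9.78% of all genes passed. The WKY rats had 53.2, 42.0, 36.1, 40.6 and 41.0 CPM and the SHRs 47.5, 58.3, 74.1, 50.8 and 59.2 CPM. SHRs were mostly higher, but the highest WKY rat lay above the lower 2 of the SHRs. SHR minus WKY was 0.44 on the log2 scale (SE 0.123, 95% interval 0.19 to 0.68, adjusted p = 0.021). The last 3 of the WKY rats have library names ending in 2 and all 5 SHRs in 1, and with this number as a term the difference was 0.43 with an adjusted p of 0.092. It also did not pass without WKY replicate 3 (0.37, adjusted p = 0.088) or without SHR replicate 3 (0.34, adjusted p = 0.094). Its difference from the mean strain difference at the other 4 ages did not pass (0.37, adjusted p = 0.17), nor did any of the 100 such values in edgeR's test (all genes: 0.0512%; 11 at an unadjusted p under 0.05).

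Of the 100 values tested at single ages, 3 had strains that did not overlap (all genes and ages: 6.19%), among them Gabrd at 8 wk in the NTS. The WKY rats had 1.34, 1.34, 1.33, 2.18 and 2.62 CPM and the SHRs 3.43, 3.76, 2.90, 2.76 and 3.93 CPM. Every SHR lay above every WKY rat at this age, where 5.79% of all genes passed the test, while the difference of 0.90 (SE 0.375) had an adjusted p of 0.14. The others were Gabra3 in the CVLM at 24 wk (28.9, 28.4 and 23.1 CPM in WKY rats and 30.7 to 45.4 with a median of 36.1 in SHRs, adjusted p = 0.14) and Gabrg1 in the RVLM at 16 wk (58.1, 60.6 and 59.8 CPM against 60.6 to 85.5 with a median of 69.0, the nearest pair of rats both at 60.6). Gabrd in the RVLM at 10 wk, which was not tested, did not overlap either, with 6 to 8 counts in WKY rats and 9 to 17 in SHRs. In all 4, SHRs were the higher strain. How often SHRs were higher among all genes without overlap was not counted, so no shared direction is read from these cases.

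With age, 17 of the 160 differences from 8 wk within a strain passed, 8 of them higher and 9 lower than at 8 wk (all genes: 4.10%, with 2.20% higher and 1.90% lower). They fell into 2 sets, the SHRs of 10 wk and the older WKY rats in the CVLM. In SHRs of 10 wk, 3 members passed in the NTS (all genes: 27.1%), 2 in the CVLM (25.2%) and 2 in the RVLM (22.0%). Gabra5 rose in all 3 regions. In the NTS it had 19.8, 30.7, 21.3, 29.5 and 31.4 CPM at 8 wk and 44.4, 51.9, 45.98, 60.1 and 55.9 CPM at 10 wk. These groups did not overlap, and the log2 difference was 1.01 (SE 0.274, adjusted p = 0.0076). In the CVLM it had 22.9, 25.9, 19.6, 25.9 and 46.9 CPM at 8 wk and 37.0, 62.7, 50.2, 71.4 and 78.4 CPM at 10 wk. The 8 wk library at 46.9 CPM carries an age label of 10 wk against a title of 8 wk, and it is the only one to reach into the range of the older rats (log2 difference 1.11, SE 0.324, adjusted p = 0.013). In the RVLM 19.0, 16.9, 12.2, 27.6 and 12.8 CPM stood against 44.2, 55.4, 33.6, 37.9 and 42.2 CPM, again without overlap (1.29, SE 0.335, adjusted p = 0.0070). In WKY rats the mean of Gabra5 also rose from 8 to 10 wk, but no member passed for this step. The means were 39.9 and 49.0 CPM in the NTS, 38.4 and 59.0 in the CVLM and 28.4 and 32.7 in the RVLM. At 8 wk the SHR means were lower, at 26.5, 28.2 and 17.7 CPM in the same regions. Whether this step differed between strains was not tested.

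Other members that passed in SHRs of 10 wk were Gabrb2, which rose by 0.66 in the NTS (adjusted p = 0.033) and by 0.68 in the CVLM (adjusted p = 0.046), Gabra3, which rose by 0.41 in the NTS (adjusted p = 0.037), and Gabrb1, which fell by 0.43 in the RVLM (adjusted p = 0.012). Library names of all SHRs of 8 wk end in 1 and of all SHRs of 10 wk in 2, so this age step cannot be told apart from that number within SHRs. With the number as a term, estimated from the groups that hold both, 0 of these 7 passed. Gabra5 then differed by 0.42 for the NTS, 0.52 for the CVLM and 0.84 for the RVLM (adjusted p = 0.81, 0.97 and 0.82). Without the number as a term, the 3 differences of Gabra5 passed in each of 28 fits that left out 1 library of the WKY rats or of the SHRs of 8 and 10 wk; SHRs of 12, 16 and 24 wk were not left out.

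Gabrb2 and Gabrg1 differed with the number also where rats of 1 strain and age had both. The libraries whose names end in 2 exceeded those ending in 1 for Gabrb2 by 0.79 on the log2 scale in the NTS (adjusted p = 8.5e-04), 0.74 in the CVLM (adjusted p = 0.0062) and 0.87 in the RVLM (adjusted p = 0.0027). For Gabrg1 the values were 0.55 (adjusted p = 8.7e-05), 0.46 (adjusted p = 0.0051) and 0.40 (adjusted p = 0.083). Gabra2 passed in the NTS (0.41, adjusted p = 0.017) and the CVLM (0.39, adjusted p = 0.036), and Gabra3 in the NTS (0.44, adjusted p = 0.0055). Over all genes 25.6%, 21.6% and 16.4% passed in the NTS, CVLM and RVLM. Within WKY rats of 8 wk, Gabrg1 in the NTS was at 63.1 and 66.5 CPM in the libraries ending in 1 and at 104, 93.9 and 99.1 CPM in those ending in 2. In the RVLM of the same rats it was at 63.4 and 56.9 CPM against 31.1, 94.0 and 112 CPM, and Gabrb2 at 10.7 and 10.4 CPM against 5.44, 21.0 and 25.6 CPM. The low value ending in 2 is that of replicate 3, the library that stood apart, and for both genes it was the lowest of the RVLM. The only SHR of 24 wk whose library names end in 2 had 36.5 CPM of Gabrb2 in the RVLM, against 12.7 to 19.6 CPM in the other 5.

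**Figure D5:**
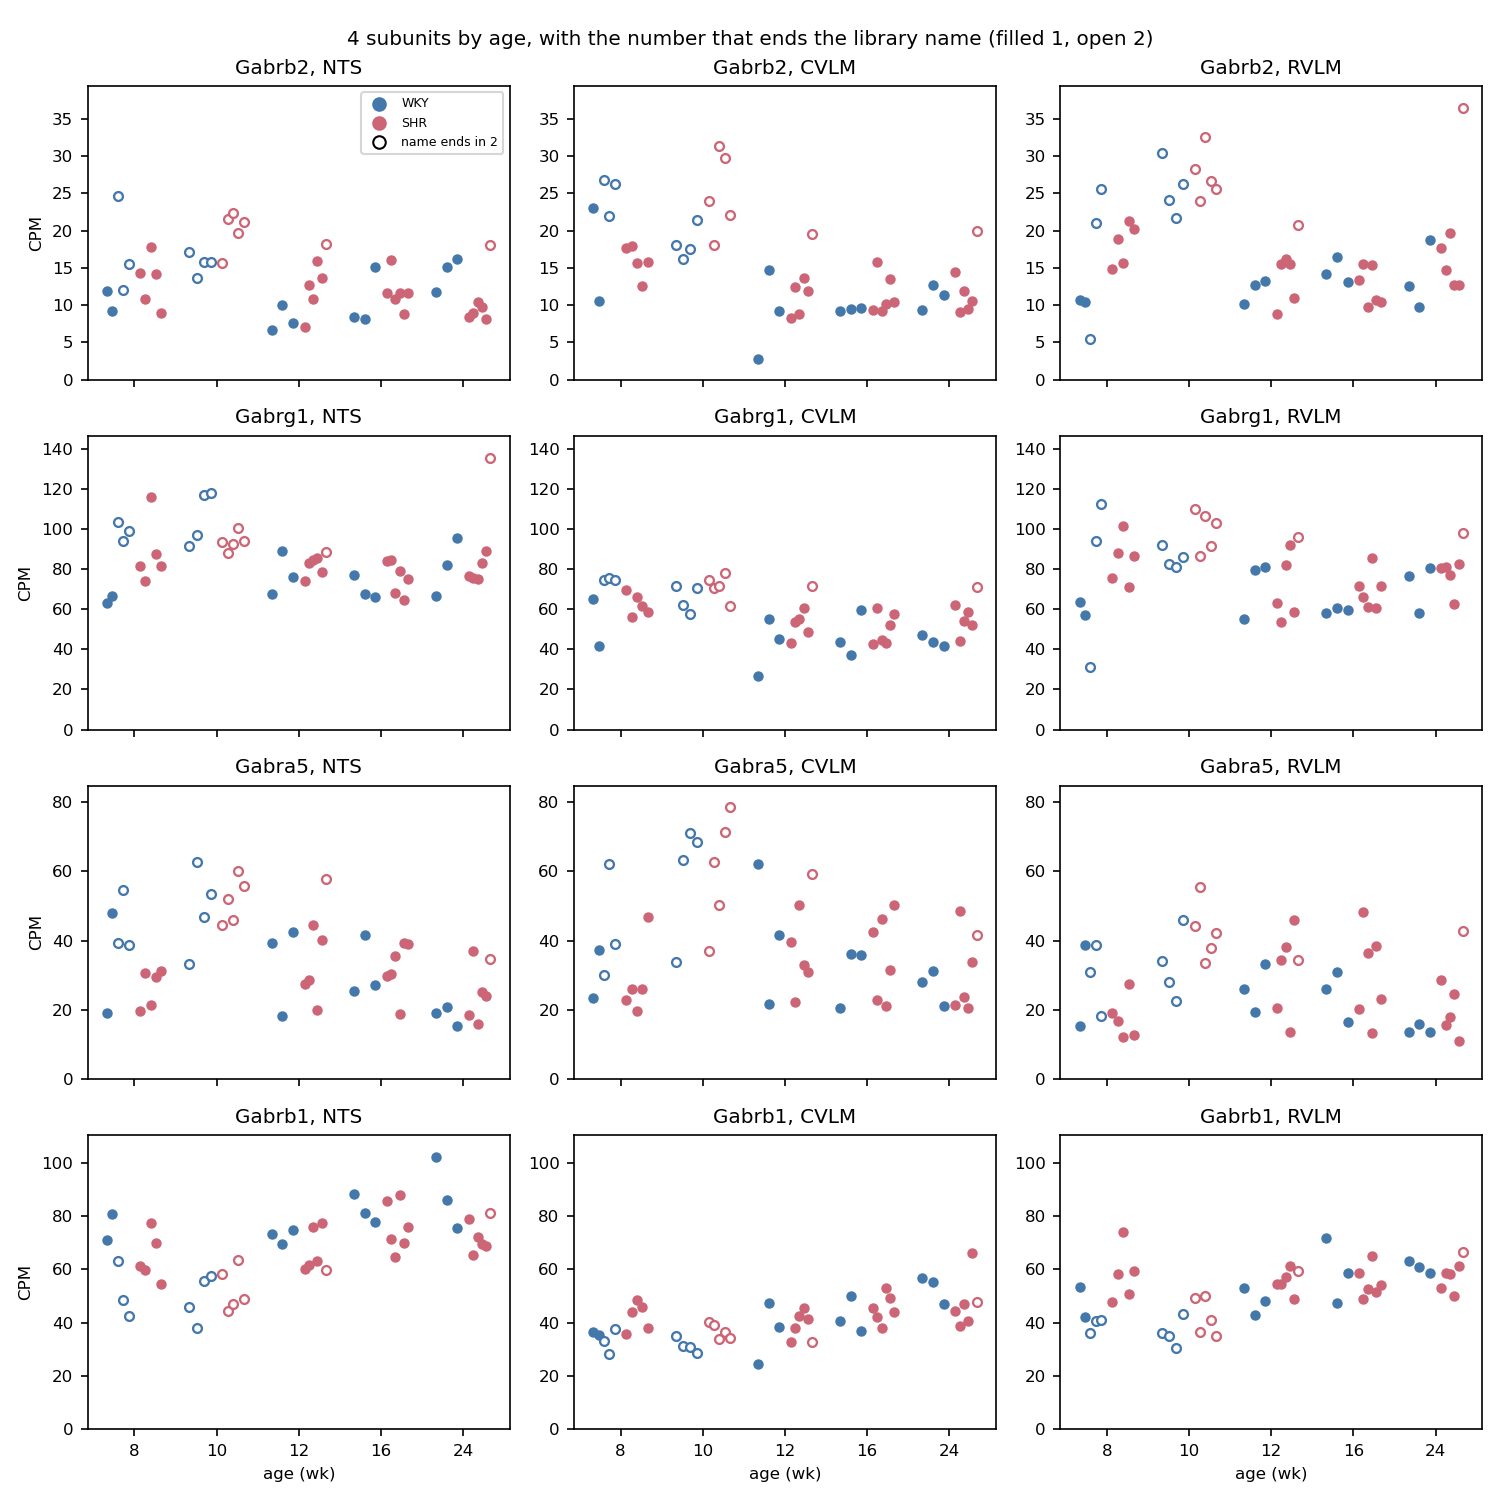
CPM of Gabrb2, Gabrg1, Gabra5 and Gabrb1 by age in wk, with 1 point per library, strains by colour, and open points for libraries whose names end in 2. Open points make up all of 10 wk and include the lowest RVLM library for Gabrb2 (5.44 CPM), and Gabrb1 in the CVLM of WKY rats goes from 28.2 to 37.6 CPM at 8 wk to 46.8 to 56.6 CPM at 24 wk.

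Of all age differences, that of Gabrb1 in the CVLM of WKY rats alone also passed with the number as a term. It was at 36.6, 35.3, 33.2, 28.2 and 37.6 CPM at 8 wk and at 56.6, 55.3 and 46.8 CPM at 24 wk. The groups did not overlap, and the log2 difference was 0.68 (SE 0.149, adjusted p = 0.0033), or 0.61 with the number as a term (adjusted p = 0.047), where 13.7% of all genes passed in the first fit. In the same rats Gabrb1 differed by 0.48 in the NTS (adjusted p = 0.075) and 0.51 in the RVLM (adjusted p = 0.085). In SHRs of 24 wk against 8 wk its values were 0.15 for the NTS, 0.18 for the CVLM and 0.00 for the RVLM (adjusted p = 0.86, 0.81 and 1.0). The strain difference of Gabrb1 in the CVLM at 24 wk was 0.37 below its mean at the other 4 ages (value -0.37, adjusted p = 0.28). The rise in the CVLM of WKY rats passed without any single library of the 28 that were left out in turn.

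The other members that passed in WKY rats of the CVLM were mostly lower than at 8 wk. Of 7 members, 4 passed at 12 wk (all genes: 4.55%), 3 at 16 wk (1.98%) and 3 at 24 wk, Gabrb1 among them. Gabrb2 fell at each of these ages, by 1.26, 1.17 and 0.91 on the log2 scale (adjusted p = 0.019, 0.036 and 0.040). It had 23.0, 10.6, 26.8, 21.9 and 26.2 CPM at 8 wk, of which the first 2 are from libraries ending in 1, then 2.76, 14.7 and 9.26 CPM at 12 wk, 9.20, 9.48 and 9.66 CPM at 16 wk and 9.32, 12.7 and 11.3 CPM at 24 wk. The low end of the 8 wk rats overlapped with the older groups of 12 and 24 wk. At 12 wk Gabra2 fell by 0.65, Gabra3 by 0.67 and Gabrg1 by 0.62 (adjusted p = 0.042, 0.049 and 0.039). None of these 4 values passed without WKY replicate 1 of 12 wk, which was the lowest of the CVLM for Gabra2 (7.53 CPM), Gabra3 (17.3), Gabrb2 (2.76) and Gabrg1 (26.5). Without it Gabrb2 differed by -0.84, Gabra2 by -0.35, Gabra3 by -0.46 and Gabrg1 by -0.39 (adjusted p = 0.18, 0.39, 0.34 and 0.34). At 16 wk Gabra2 fell by 0.68 (adjusted p = 0.049), and Gabrd rose by 1.76 (SE 0.441, adjusted p = 0.030), from 0.516, 1.25, 0.633, 0.736 and 0.779 CPM to 2.71, 1.44 and 3.76 CPM. At 24 wk Gabrg1 fell by 0.53 (adjusted p = 0.041). Apart from Gabrb1, the 9 differences of this paragraph all failed to pass with the number as a term, and likewise without WKY replicate 3, 4 or 5 of 8 wk, the libraries ending in 2. Apart from Gabrd, the differences themselves moved less without these libraries than with the number as a term. Gabrb2 at 12 wk was -1.18 to -1.25 without 1 of them and -0.79 with the number (adjusted p = 0.053 to 0.067 and 0.43), while Gabrd at 16 wk was 1.70 to 1.77 and 1.77 (adjusted p = 0.075 to 0.10 and 0.27). Replicate 5 is also the WKY library whose age label and title conflict. In the CVLM of SHRs no member passed at 12, 16 or 24 wk, but for these differences the means went the same way. Gabrb2 had 15.9 CPM at 8 wk and then 12.4, 11.4 and 12.6. Gabra2 had 22.0 CPM at 8 wk, 17.0 at 12 wk and 16.6 at 16 wk. Gabra3 had 37.6 and 33.3 at 8 and 12 wk, and Gabrd 1.26 and 1.47 at 8 and 16 wk. Gabrg1 had 62.4 at 8 wk, 55.4 at 12 wk and 57.2 at 24 wk. Whether these steps differed between strains was not tested.

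Around the members, other genes of GABA signalling were read from lists drawn up with earlier results of these data known. Of 48 such genes in the tables, 42 were tested in at least 1 region and 13 passed for the strain difference averaged over ages in at least 1 (all genes: 18.4%, with 11.2%, 12.3% and 10.8% in the NTS, CVLM and RVLM taken singly). Of 12 other GABA-A subunits, 7 passed the filter, and among these 0 differed in the NTS and the CVLM and 1 was higher in SHRs in the RVLM. Of 18 genes for receptor assembly, anchoring and trafficking, 2 were higher and 2 lower in SHRs in the NTS, 1 and 1 in the CVLM, and 2 and 0 in the RVLM. Nsf, an ATPase that takes part in membrane fusion and receptor delivery, rose in SHRs in all 3 regions (0.21, 0.30 and 0.35 on the log2 scale in the NTS, CVLM and RVLM, adjusted p = 9.6e-04, 9.3e-05 and 2.3e-07). Shisa7, a protein that binds GABA-A receptors, rose in the RVLM by 0.58 (adjusted p = 0.047).

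Of 7 genes of GABA synthesis, release, uptake and breakdown, 2 were lower in the NTS and 1 each in the CVLM and RVLM, and in the RVLM 1 was higher. Abat, the enzyme that breaks GABA down, was lower in SHRs in all 3 regions (-0.47, -0.34 and -0.50 in the NTS, CVLM and RVLM, adjusted p = 7.0e-09, 6.5e-05 and 1.6e-08). Slc6a13, a GABA transporter found outside synapses and in the meninges, was 0.57 higher in the RVLM (adjusted p = 0.011). Of the 2 GABA-B receptor subunits in the tables, 1 was higher in the NTS, and of 4 tested genes for endogenous modulators of the receptor 1 was lower in the NTS and 2 in the CVLM, among them Tspo, the mitochondrial translocator protein (-0.53 and -0.34, adjusted p = 8.3e-06 and 0.0071). Between regions, the GABA-synthesizing enzymes Gad1 and Gad2 exceeded their RVLM level in the NTS by 1.73 and 1.27 on the log2 scale (adjusted p = 6.7e-31 and 1.2e-23). This was a larger difference than that of any member in this pair of regions. The rest of their list did not all follow. Of its 7 genes, 4 passed as higher and 1 as lower in the NTS, and the median difference was 0.19.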

How the data were processed

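Each of 46 female rats gave 1 RNA-seq library per region. The authors mapped reads to rn6 with STAR within RSEM at default parameters, and the deposited tables hold RSEM expected counts per gene without normalization. Their methods also name ComBat_seq, and whether it was applied to these tables is not given in the sources used here. Non-whole values made up 5.02% of the NTS table, 4.95% of the CVLM table and 4.88% of the RVLM table. The 7 subunits had none, and these shares do not settle the question. No strand setting is given in the sources used here. Expected counts were rounded, which changed no value of the 7 subunits. Labels put 2 CVLM libraries (WKY and SHR replicate 5) at 8 wk by title and at 10 wk by age, and the title was followed. Of 270 pairs of libraries within a group, none agreed within sampling noise (lowest chi-square per gene 4.96).

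Genes whose largest rlog value (DESeq2 1.42.0) in a region was at least 3.5 were tested: 13793 in the NTS, 13408 in the CVLM, 13411 in the RVLM and 14043 in at least 1 of the 3. In R 4.3.3, edgeR 4.0.16 was run with TMM and its quasi-likelihood test, with 10 groups of strain and age per region, and over all regions with the rat as a block. Benjamini-Hochberg adjustment ran over all genes of a comparison, and a value passed at an adjusted p under 0.05. Each rat counts as 1 replicate, and intervals are 95%. The scripts were tested on simulated data.

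Alternatives were RLE scaling, no filter, DESeq2, limma 3.58.1 voom, each age fitted alone, a replicate block, the number ending the library name as a term, marker covariates, stricter thresholds (adjusted p up to 0.01 with a log2 fold change from 1 up) and left-out libraries, ages or rats. The members and lists were chosen with earlier results of these data known. The text names all 7 members, the 3 genes most like each (by Pearson r of group means, of which some are printed), and up to 8 list genes by the number of regions in which they passed and then by size; some of these genes are not reported here, and Gad1 and Gad2 were named after their values were seen. Chromosome positions on rn6 were not analysed here.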

Additional observations from a re-analysis of the deposited data

Results flagged for a closer look

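There were 147 groups of 4 to 6 libraries (a subunit in 1 region, strain and age). Of these, 12 held a library whose gap to the nearest other was large for the range of its group. This was by Dixon's test at 95%, which chance gives in about 1 in 20 groups. In SHRs of 24 wk, replicate 6 was the highest for Gabra3 in the NTS (68.5 CPM, nearest 48.5), Gabrb2 in the NTS (18.01, nearest 10.4) and the RVLM (36.5, nearest 19.6) and Gabrg1 in the NTS (136, nearest 88.9). It is the only SHR of that age whose library names end in 2. Replicate 5 of the SHRs of 8 wk was the highest for Gabra5 in the CVLM (46.9 CPM, nearest 25.9), and its labels conflict on age. Gabrb1 in the CVLM of SHRs of 24 wk reached 66.2 CPM in replicate 5 (nearest 47.6). Gabra2 in SHRs of 16 wk was highest in replicate 2 of the CVLM (21.7 CPM, nearest 17.0) and in replicate 4 of the RVLM (54.0, nearest 35.8). In WKY rats of 10 wk, replicate 1 was the lowest for Gabra3 in the NTS (52.2 CPM, nearest 59.4). For Gabrd in the RVLM, with few counts, replicate 1 of the SHRs of 8 wk (1.37 CPM, nearest 0.590) and replicate 4 of those of 10 wk (1.24, nearest 0.674) were the highest, and replicate 6 of those of 16 wk (0.456, nearest 0.865) was the lowest.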

How the results depend on the processing

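Differences between regions passed in 19 of 21 values, in 7 with neuron markers and in 6 with cholinergic markers as a covariate, and in 2 at stricter thresholds (adjusted p up to 0.01, log2 fold change from 1 up); under RLE scaling, limma voom, no rat block (18), or without single ages or the rats with conflicting labels it was 17 to 19, and 16 of 18 over genes past the filter in all 3 regions. With neuron markers Gabra5 turned to -0.81 for NTS minus RVLM and -0.18 for CVLM minus RVLM, and with cholinergic markers Gabrd turned to -0.017 and -1.10 for these pairs and Gabrb2 to 0.30 for CVLM minus RVLM. For strain at single ages the 1 value that passed became 0 with the end number as a term, with a replicate block, with each age fitted alone and at the stricter thresholds, and 0 to 3 without single libraries. Averaged over ages it was 0, but 1 with the end number (Gabrg1 in the CVLM, 0.19, adjusted p = 0.036) and 0 to 2 without single libraries, and for 1 age against the others 0 to 1. Age differences passed in 17 values, in 7 with no filter, 7 without the 2 libraries of conflicting age, 1 with the end number, 2 at the stricter thresholds, 22 with DESeq2, and 8 (without WKY replicate 3 of 8 wk) to 22 (without WKY replicate 1 of 8 wk) without single libraries. With the end number, SHRs of 10 wk against 8 wk turned to -0.028 for Gabra3 and -0.13 for Gabrb2 in the NTS and to -0.062 for Gabrb2 in the CVLM. The cause was not tested. Replicate numbers were not taken to pair the strains in the main fit. Of 54 pairs with the same number, 32 correlated above 0.1 (-0.33 to 0.55, median 0.15). All pairs were above 0.1 in 4 of 15 groups of region and age, but not in the RVLM at 8 wk (-0.27 to 0.078). A part shared by number is thus not shown to be absent, and the main fit does not model it. With the replicate block Gabrb1 in the RVLM at 8 wk was 0.43 (adjusted p = 0.085); the block could not be used for ages within a strain. Averages over ages have no fit with each age alone. Depth limits Gabrd most, with 1 to 46 counts, for which a difference may not have been detectable.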
